A study of Homo sapiens with 6 samples.

Results

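The genes examined here encode 9 enzymes of serine synthesis and folate one-carbon metabolism, which were PHGDH, PSAT1, PSPH, SHMT1, SHMT2, MTHFD1, MTHFD1L, MTHFD2 and ALDH1L2. They were taken as the rows of the deposited count table whose Ensembl identifier carries one of these current symbols. Each symbol matched a single row, which gave 9 of the 23227 genes in the table, and all 9 passed the filter on low counts and were tested among 14635 genes. RNA was sequenced from MV4-11, an established human acute myeloid leukaemia line that carries a KMT2A fusion and a mutated FLT3 receptor. The ENO1 knockdown group held 3 libraries, whose columns carry the name of a single hairpin against ENO1, the glycolytic enzyme alpha-enolase. The NC control group also held 3 libraries, which the labels describe as untreated wild-type cells, and the letters NC are not spelled out. Whether these controls carried a control hairpin is not given. With a single hairpin, loss of ENO1 and any other effect of the hairpin or its delivery cannot be told apart. The labels do not say that replicates were grown separately, so every p-value here measures spread among libraries that could be technical repeats.

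Serine is made in the cytosol from phosphoglycerate, a glycolytic intermediate upstream of the enolase step, by PHGDH, PSAT1 and PSPH in turn. Serine hydroxymethyltransferases then pass a carbon unit from serine to tetrahydrofolate and release glycine, with SHMT1 in the cytosol and SHMT2 in mitochondria. In mitochondria MTHFD2 oxidises the carbon unit, MTHFD1L releases it as formate for export, and ALDH1L2 can instead oxidise it to carbon dioxide with formation of NADPH. In the cytosol the trifunctional MTHFD1 takes formate up again for purine, thymidylate and methionine synthesis. Proliferating cells are known to draw on the mitochondrial arm, and ATF4 is a known activator of many of these genes.

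Library totals ran from 20044602 to 21670135 counts in the knockdown group and from 24778469 to 26373960 counts in the NC group. ENO1 served as the check of the labels, and its mean level in the knockdown libraries was 3.13% of that in the NC libraries. Knockdown replicate 3 and NC replicate 2 were the libraries farthest from the others of their groups. Mitochondrially encoded genes took 9.27 to 9.69% of the counts in knockdown libraries, against 6.69 to 6.88% in NC libraries. All 10 markers of the myeloid line, among them PTPRC, SPI1, CD33 and FLT3, were detected, with 5 higher and 5 lower in the knockdown cells. Of 7 epithelial and fibroblast markers 2 keratin genes were higher. The summed level of that list was 45.1 to 48.3 CPM in knockdown libraries and 18.5 to 20.1 CPM in NC libraries. The epithelial gene EPCAM had 0, 2 and 0 counts in the knockdown libraries and no count in any NC library. Summed T cell markers stayed at or below 0.139 CPM in every library, and summed B cell markers were 6.17 to 7.02 CPM in the knockdown group and 3.45 to 4.67 CPM in the NC group, with 2 of 4 higher. The erythroid and megakaryocyte list summed to 4.67 to 6.25 CPM in knockdown libraries and 3.24 to 4.67 CPM in NC libraries, with 1 of 7 higher. The part of these differences in the results on the enzymes was not tested.

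At an adjusted p below 0.05 (edgeR quasi-likelihood test with Benjamini-Hochberg adjustment over all genes tested, used for every adjusted p given here), 8 of the 9 enzyme genes were lower in the knockdown cells and none was higher. Over all genes tested, 30.5% were lower by the same rule, 29.4% were higher and 59.9% were called in either direction. At least 2-fold lower were 4 of the 9, against 3.56% of all genes. The median log2 fold change was -0.89 over the 9 genes and 0.00 over all genes tested. Levels are given as CPM, the count relative to the TMM-scaled library size. Summed over the 9 genes, the level was 754, 753 and 766 CPM in the knockdown libraries, against 1499, 1474 and 1487 CPM in the NC libraries. In bulk RNA, fewer cells with a transcript and less of it per cell cannot be told apart.

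**Figure D1:**
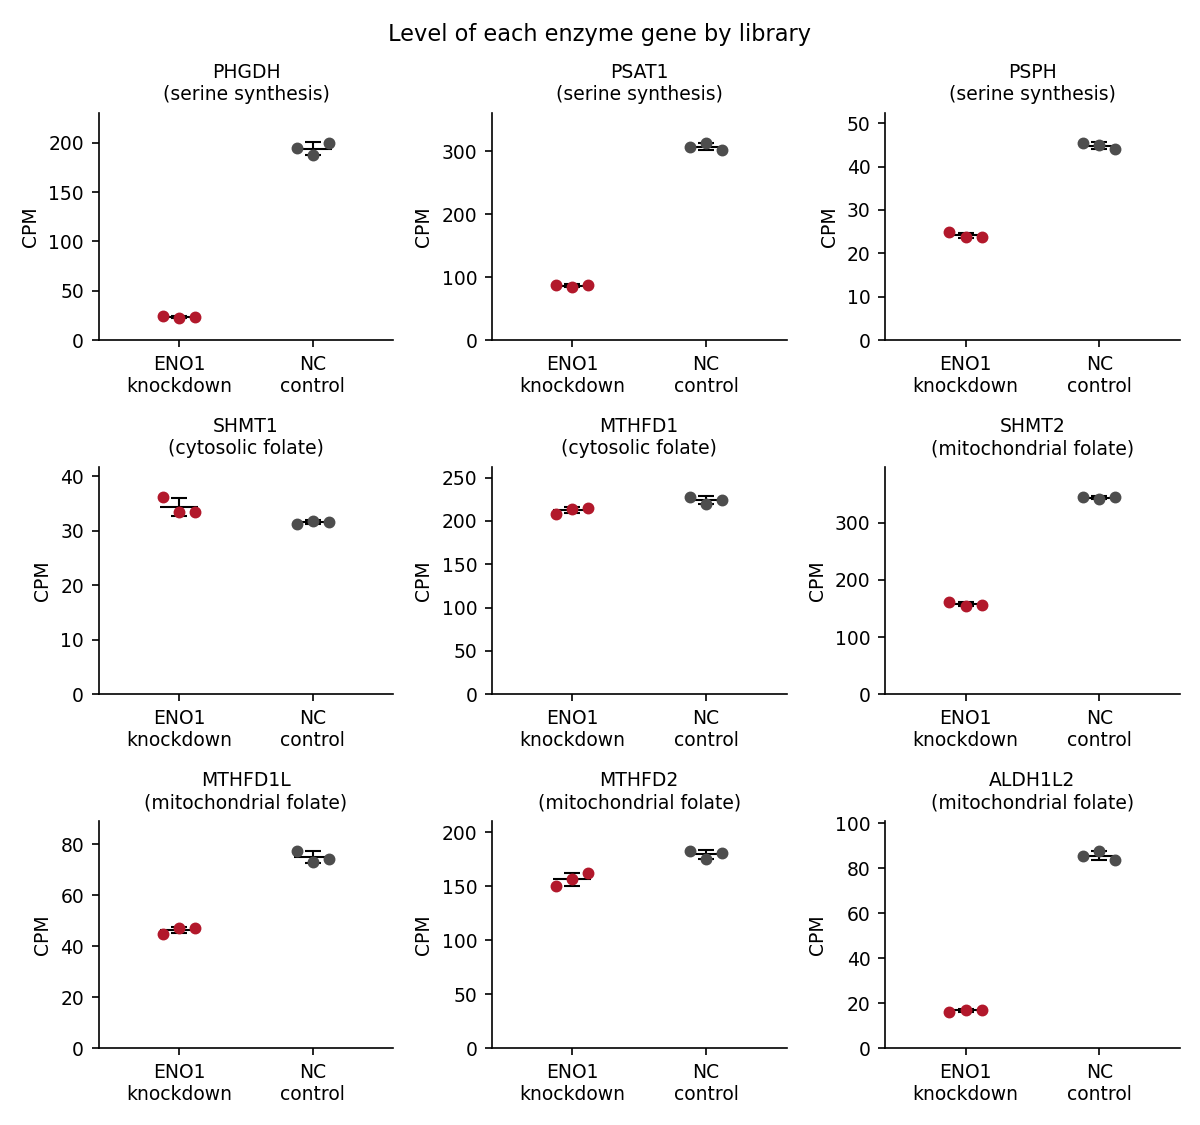
Level of each of the 9 enzyme genes in CPM (vertical axes, each from 0) in the 3 ENO1 knockdown libraries (left, red) and the 3 NC control libraries (right, grey), with horizontal bars for the mean and whiskers for the SD. The libraries of the groups do not overlap for any of the 9 genes, nor for 64.3% of all genes tested. Only SHMT1 has its knockdown libraries above the NC libraries.

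All 3 genes of serine synthesis fell, and the size of the fall followed the order of the enzymes in the pathway. This match of orders rests on 3 genes and was not tested. PHGDH (ENSG00000092621, GRCh38 chromosome 1, 119648411 to 119744226, plus strand) encodes phosphoglycerate dehydrogenase, which commits phosphoglycerate to serine. It had 24, 22.4 and 23.1 CPM in the knockdown libraries, from 469 to 517 counts, against 195, 187 and 200 CPM in the NC libraries, from 4560 to 5046 counts. Every knockdown library lay far below every NC library, and the knockdown mean was 12% of the NC mean. The log2 fold change came to -3.06, standard error about 0.046 (edgeR adjusted p = 3.23e-27), and only 0.109% of the genes tested had a lower one. PSAT1 (ENSG00000135069, chromosome 9, 78297143 to 78330093, plus strand), the phosphoserine aminotransferase of the second step, had 88.2, 84.0 and 87.6 CPM in the knockdown libraries and 307, 314 and 302 CPM in the NC libraries. The groups were again far apart, with 28.1% of the NC level left and a log2 fold change of -1.83 with a standard error of 0.035 (edgeR adjusted p = 4.10e-25). PSPH (ENSG00000146733, chromosome 7, 56011051 to 56051604, minus strand), the phosphatase that releases serine, had 24.9, 23.7 and 23.8 CPM in the knockdown libraries against 45.5, 44.9 and 44.1 CPM in the NC libraries. That left 53.8% of the NC level, with a log2 fold change of -0.89 and a standard error of 0.057 (edgeR adjusted p = 1.84e-13).

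All 4 mitochondrial folate genes among the 9 also fell, over a wide range of sizes. ALDH1L2 (ENSG00000136010, chromosome 12, 105019784 to 105084577, minus strand), the mitochondrial formyltetrahydrofolate dehydrogenase, had 16.3, 17.2 and 16.8 CPM in the knockdown libraries and 85.4, 87.9 and 83.8 CPM in the NC libraries. Its level was 19.6% of the NC mean, and its log2 fold change of -2.35 with a standard error of 0.055 (edgeR adjusted p = 4.16e-23) was second only to PHGDH among the 9. SHMT2 (ENSG00000182199, chromosome 12, 57229327 to 57234935, plus strand), which loads the mitochondrial folate pool from serine, had 162, 154 and 157 CPM in the knockdown libraries against 345, 341 and 346 CPM in the NC libraries. The groups were separated by more than 2-fold, with a log2 fold change of -1.13 and a standard error of 0.032 (edgeR adjusted p = 2.78e-21). MTHFD1L (ENSG00000120254, chromosome 6, 150865549 to 151101887, plus strand), the formate-releasing ligase, had 44.8, 47.0 and 47.2 CPM in the knockdown libraries and 77.5, 72.9 and 74.4 CPM in the NC libraries. All knockdown libraries were lower, and the log2 fold change was -0.69 with a standard error of 0.048 (edgeR adjusted p = 8.67e-13). MTHFD2 (ENSG00000065911, chromosome 2, 74198562 to 74217565, plus strand), the dehydrogenase and cyclohydrolase between SHMT2 and MTHFD1L, had 150, 157 and 162 CPM in the knockdown libraries and 183, 175 and 181 CPM in the NC libraries. The groups did not overlap but lay close together, with 87.0% of the NC level left and a log2 fold change of -0.20 with a standard error of 0.036 (edgeR adjusted p = 2.29e-05).

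The cytosolic folate genes differed little between the groups. MTHFD1 (ENSG00000100714, chromosome 14, 64388031 to 64463457, plus strand) had 208, 214 and 215 CPM in the knockdown libraries and 228, 219 and 224 CPM in the NC libraries. The highest knockdown library lay just below the lowest NC library, and the log2 fold change was -0.08 (95% interval -0.14 to -0.01, edgeR adjusted p = 0.0402). That call was lost when knockdown replicate 1 or 2 or NC replicate 1 or 3 was left out (edgeR adjusted p = 0.0588 to 0.144) and with the filter at 5 CPM in 3 libraries (edgeR adjusted p = 0.272), upper-quartile scaling (edgeR adjusted p = 0.311) or plain library sizes (edgeR adjusted p = 0.547). SHMT1 (ENSG00000176974, chromosome 17, 18327860 to 18363563, minus strand) had 36.3, 33.5 and 33.5 CPM in the knockdown libraries and 31.2, 31.9 and 31.6 CPM in the NC libraries. Here the knockdown libraries were the higher ones, and the log2 fold change was 0.13 (95% interval 0.01 to 0.25), which did not pass the threshold (edgeR adjusted p = 0.0652). It passed as higher with that filter (edgeR adjusted p = 0.0137), with upper-quartile scaling (edgeR adjusted p = 0.0173) and with plain library sizes (edgeR adjusted p = 0.0102). All knockdown libraries lay below all NC libraries for 8 of the 9 enzyme genes and for 32.5% of all genes tested, and the groups did not overlap in either direction for 64.3% of all genes tested.

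**Figure D2:**
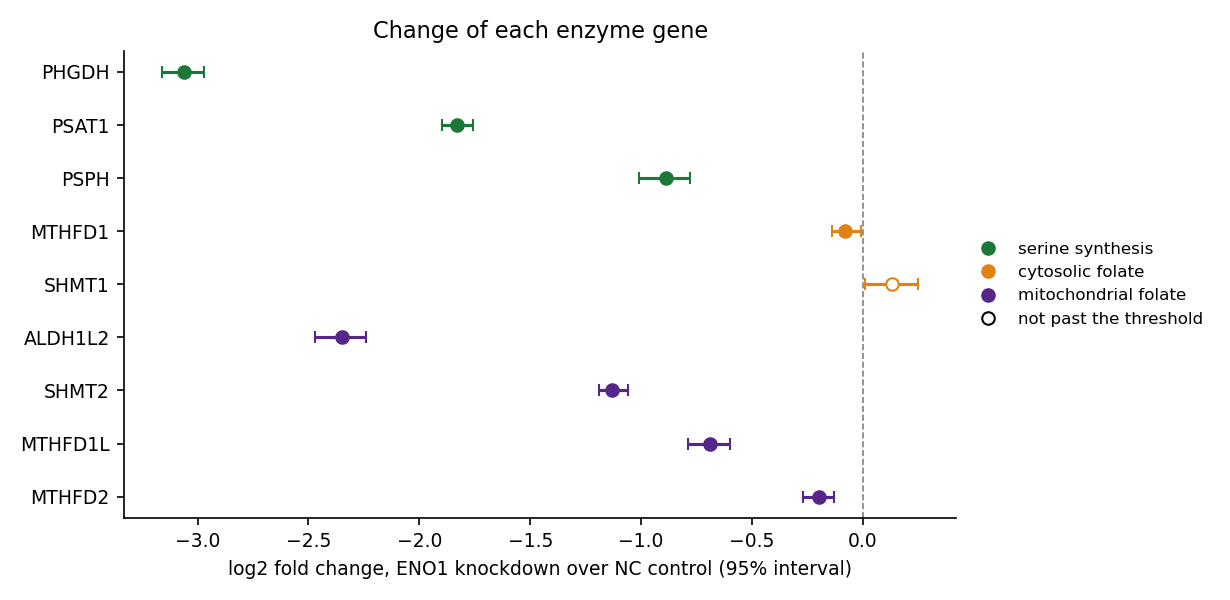
Log2 fold change of each enzyme gene, ENO1 knockdown over NC control (horizontal axis), with 95% intervals and 3 libraries per group; colours give the role, and the open circle marks SHMT1, which did not pass the threshold. The serine synthesis and mitochondrial folate genes lie between -3.06 and -0.20, and the cytosolic genes MTHFD1 and SHMT1 lie at -0.08 and 0.13.

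Some exons of these genes overlap other genes on the opposite strand. The strand setting of the read counting is not given in the sources used here, so reads from such a pair cannot be told apart. MTHFD2 shared 30.5% and MTHFD1 11.1% of their 50-base stretches with transcripts of other genes, so both are uncertain in this respect, while the other 7 shared between 0 and 6.17%. SLC4A5, the main antisense partner of MTHFD2, had 10, 12 and 13 counts in the knockdown libraries and 18, 11 and 11 in the NC libraries, against 3223 to 3463 and 4265 to 4750 counts for MTHFD2. ZBTB25, opposite to MTHFD1, had 312 to 356 counts in the knockdown libraries and 366 to 464 in the NC libraries. NDUFA4L2, which overlaps the end of SHMT2, had 26 to 37 counts in the knockdown libraries and 162 to 185 in the NC libraries, and SHMT2 had 3185 to 3482 and 8318 to 8957. The log2 fold change of NDUFA4L2 was -2.22 (edgeR adjusted p = 1.16e-11), the same direction as SHMT2. The transcripts that shared most with SHMT2 and MTHFD1 were those of AC137834.2 and AL122035.2, also on the opposite strand, for which no counts are given here. SMCR8, opposite to SHMT1, was expressed above it, with 2645 to 2954 counts in the knockdown libraries and 2467 to 2514 in the NC libraries, and rose by 0.41 on the log2 scale (edgeR adjusted p = 4.13e-10). Overlaps with other genes cover 3.69% of the SHMT1 exon bases. The part of these partners in the values of the enzymes was not tested.

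Mitochondrial and cytosolic enzymes that act on the same reactions were compared within each library as a ratio of counts per kilobase of transcript, which does not depend on the scaling of the libraries. Per kilobase of the principal transcript, SHMT2 was 4.34, 4.48 and 4.54 times as abundant as SHMT1 in the knockdown libraries, and 10.7, 10.4 and 10.7 times in the NC libraries. The ratio was thus lower in every knockdown library, by -1.25 on the log2 scale. SHMT2 made up 81.3 to 81.9% of the summed SHMT level in the knockdown libraries and 91.2 to 91.5% in the NC libraries, so the mitochondrial form was the major one in both groups. With the length of all annotated exons instead, a choice made after seeing the data, the mean ratio was 6.89 in the knockdown libraries and 16.4 in the NC libraries. MTHFD1L stood at 0.188, 0.191 and 0.191 of MTHFD1 in the knockdown libraries and at 0.296, 0.289 and 0.289 in the NC libraries, a log2 difference of -0.62. MTHFD2 stood at 0.507, 0.517 and 0.531 of MTHFD1 in the knockdown libraries and at 0.565, 0.561 and 0.569 in the NC libraries, a small log2 difference of -0.12. With the length of all annotated exons that mean ratio was 1.42 in the knockdown libraries and 1.55 in the NC libraries, so which of MTHFD2 and MTHFD1 was the more abundant depends on the length used, whereas the log2 difference between the groups does not. In all 3 ratios every knockdown library lay below every NC library. The two-sided exact permutation test gave p = 0.10 for each ratio (also 0.10 after Benjamini-Hochberg adjustment over the 3 ratios), which is the smallest value that 3 against 3 libraries allow. MTHFD2L, a mitochondrial isozyme of MTHFD2 that is not among the 9 and was named after its values were seen, had 9.62, 10.6 and 8.75 CPM in the knockdown libraries and 8.79, 8.57 and 9.11 CPM in the NC libraries. Its groups overlapped, and its log2 fold change of 0.13 (95% interval -0.08 to 0.35) did not pass (edgeR adjusted p = 0.287). ALDH1L1, the cytosolic counterpart of ALDH1L2, was too low to be tested, with a mean of 0.0793 CPM in the knockdown libraries and no count in the NC libraries.

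**Figure D3:**
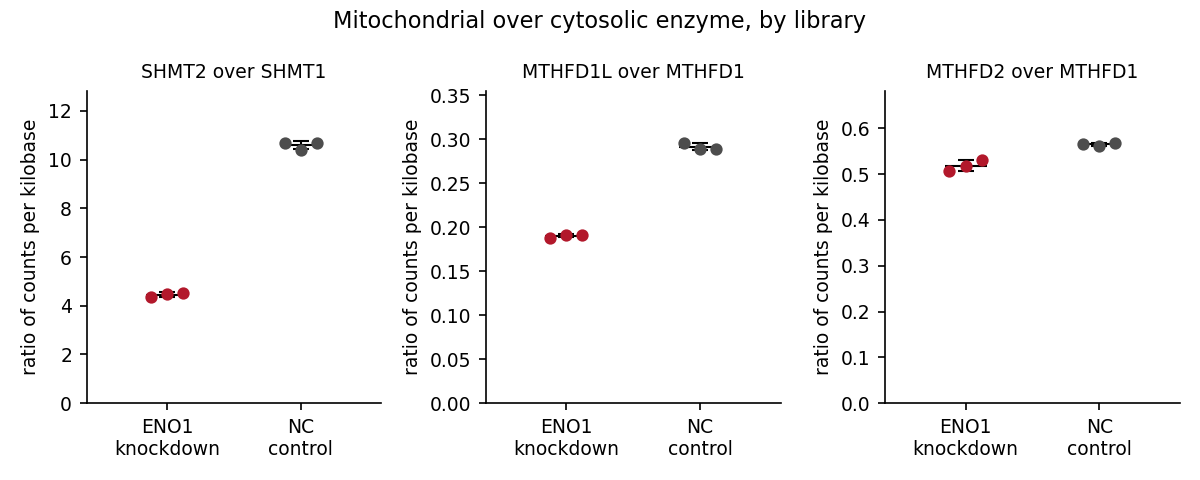
Ratio of counts per kilobase of transcript, mitochondrial over cytosolic enzyme (vertical axes, each from 0), in the 3 ENO1 knockdown libraries (left, red) and the 3 NC control libraries (right, grey), with bars for the mean and whiskers for the SD. The SHMT2 over SHMT1 ratio shows the widest gap, from 4.34 to 4.54 in knockdown libraries against 10.4 to 10.7 in NC libraries, and the MTHFD2 over MTHFD1 ratio the narrowest.

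The unequal falls changed the order of the levels among the enzymes. Per kilobase of the principal annotated transcript, the knockdown cells had MTHFD1 at the top with 67.7 ± 1.26 CPM per kilobase (SD, n = 3), then SHMT2, PSAT1, MTHFD2, SHMT1, MTHFD1L, PSPH, PHGDH and ALDH1L2, which was lowest at 2.22 ± 0.0585 CPM per kilobase (SD, n = 3). No neighbours in this order overlapped between libraries. In the NC cells PSAT1 led with 141 ± 2.92 CPM per kilobase (SD, n = 3), followed by SHMT2, PHGDH, MTHFD1, MTHFD2, MTHFD1L, PSPH, SHMT1 and ALDH1L2 at 11.4 ± 0.269 CPM per kilobase (SD, n = 3). There PHGDH and MTHFD1 overlapped, as did MTHFD1L and PSPH. PHGDH stood in place 8 at 8.96 ± 0.322 CPM per kilobase in the knockdown cells and in place 3 at 74.9 ± 2.46 CPM per kilobase in the NC cells (SD, n = 3). With the length of all annotated exons in place of the principal transcript, a choice made after seeing the data, PHGDH stood in place 8 in the knockdown cells and in place 5 in the NC cells, PSAT1 led in both groups, MTHFD2 stood above MTHFD1 in both groups, and SHMT1 was lowest in the NC cells.

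**Figure D4:**
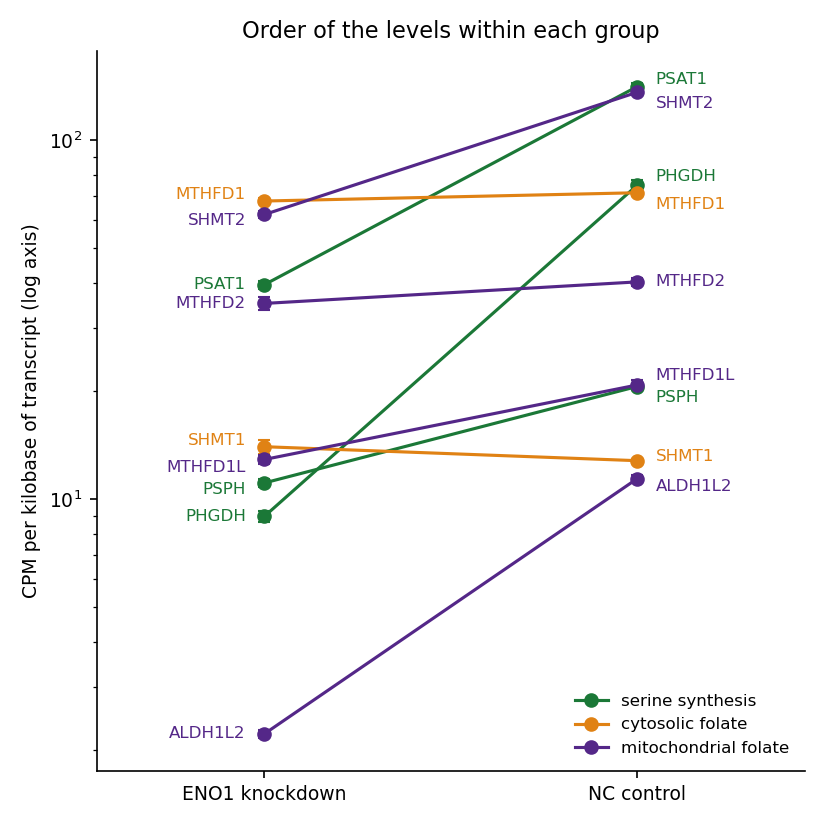
Level per kilobase of the principal transcript (vertical axis, log scale) of the 9 enzyme genes in ENO1 knockdown (left) and NC control libraries (right), as means with SD whiskers over 3 libraries; lines join the same gene and colours give the role. PHGDH crosses several other lines, at 8.96 CPM per kilobase in knockdown and 74.9 CPM per kilobase in NC libraries, while the lines of MTHFD1 and SHMT1 are nearly flat.

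The other genes of the pathway were described through 7 lists with 74 genes, of which 65 were tested, 39 lower and 15 higher, with the shares over all genes given above as background. Around the point where serine synthesis leaves glycolysis, 9 of 10 tested genes were lower and none higher, with a median log2 fold change of -0.46, the targeted ENO1 included. PGK1, which makes phosphoglycerate, and PGAM1, which carries it towards enolase, had log2 fold changes of -0.61 and -0.51, and TPI1 and PKM of -0.39 and -0.50. The enzymes of serine synthesis PHGDH and PSAT1 thus had lower log2 fold changes than PGK1, PGAM1, TPI1 and PKM. The targeted ENO1 was lower than both, at -5.00.

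Transporters moved both ways, and all 10 of the serine and glycine carriers listed passed the test, 6 lower and 4 higher. SFXN1, which brings serine into mitochondria, had 67.9, 71.9 and 78.6 CPM in the knockdown libraries against 120, 124 and 117 CPM in the NC libraries, a log2 fold change of -0.73 (edgeR adjusted p = 1.58e-13). Its relative SFXN3 rose by 0.12. At the plasma membrane SLC38A5, SLC1A4, SLC1A5 and the glycine transporter SLC6A9 had log2 fold changes of -1.12, -0.68, -0.38 and -1.12. SLC38A1 and SLC38A2, which carry small neutral amino acids, rose by 0.42 and 0.19, and the mitochondrial glycine carrier SLC25A38 rose by 0.20. The SFXN3 call was lost without NC replicate 1.

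Genes that take up and retain folate were split, with 3 of 5 tested genes lower and 2 higher. SLC19A1, the reduced folate carrier, had 75.4, 74.1 and 63.7 CPM in the knockdown libraries and 104, 99.0 and 103 CPM in the NC libraries, a log2 fold change of -0.52 (edgeR adjusted p = 3.97e-09). FOLR2, the folate receptor of macrophages, was low but higher in each knockdown library, with 114, 113 and 101 counts against 20, 29 and 28 in the NC libraries. Its log2 fold change was 2.31 (edgeR adjusted p = 1.39e-10). GGH, which shortens folate polyglutamates, had a log2 fold change of -0.20, and FPGS, which lengthens them, of 0.11. The call of FPGS was lost with 8 of 16 alternatives, among them leaving out knockdown replicate 1 or 2 or NC replicate 1 or 2. The mitochondrial folate carrier SLC25A32 was at -0.79, a call that did not hold without knockdown replicate 3. Its groups overlapped, with 5.35 CPM in knockdown replicate 2 and 5.04 CPM in NC replicate 2.

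Of 12 other folate enzymes tested, 5 were lower and 2 higher, with a median of -0.01. Among those that fell were genes whose enzymes use or recycle the cofactor, with GART of purine synthesis at -0.30, thymidylate synthase TYMS at -0.33 and the methionine synthase reductase MTRR at -0.28. MTHFS was close to the limit of the test, at 1.11 CPM in knockdown and 0.602 CPM in NC libraries, and its call was lost with 8 of 15 alternatives, among them leaving out knockdown replicate 2 or 3 or NC replicate 1 or 2. In the glycine cleavage system the H protein gene GCSH was lower, with a log2 fold change of -0.77, DLD stood at 0.05 without passing (edgeR adjusted p = 0.241), and the other 2 genes were too low to be tested.

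Genes that consume serine and glycine were also split, 6 lower and 4 higher of 12 tested, with a median of -0.08. SDS, the serine dehydratase that turns serine into pyruvate, had 121, 130 and 130 counts in the knockdown libraries and 14, 24 and 18 in the NC libraries. This low gene rose by 2.98 on the log2 scale (edgeR adjusted p = 1.63e-12), and its relative SDSL rose by 1.67. SPTLC2, which starts sphingolipid synthesis from serine, rose by 0.47 and the glycine methyltransferase GNMT by 0.43, and the GNMT call was lost with DESeq2. The phosphatidylserine synthases PTDSS1 and PTDSS2 had log2 fold changes of -0.57 and -0.48. The lowest of this list was CBS at -2.63 (edgeR adjusted p = 0.00270), with every knockdown library below every NC library. Its level was 16.2% of the NC mean. CBS shared 54.5% of its 50-base stretches with other genes, mostly CBSL, so its value is uncertain.

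Of 14 regulators, 9 were lower and 3 higher, and the 2 that did not pass were DDIT3 and EIF2AK4 (edgeR adjusted p = 0.771 and 0.939). ATF4, a transcription factor that activates serine synthesis genes, had 300, 300 and 301 CPM in the knockdown libraries and 413, 419 and 415 CPM in the NC libraries, a log2 fold change of -0.47 (edgeR adjusted p = 6.38e-14). Its partners CEBPB and CEBPG were at -1.26 and -0.60, its target TRIB3 at -1.76, and MYC at -0.86. NFE2L2, which encodes NRF2 and also acts on serine synthesis genes, rose by 0.33, and the demethylase KDM4C rose by 0.17. The KDM4C call was lost with 5 of 16 alternatives, among them leaving out knockdown replicate 3 or NC replicate 2.

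Several of these genes share sequence with pseudogenes, readthrough or antisense transcripts and are uncertain in the same way as MTHFD1 and MTHFD2. More than 10% of the 50-base stretches were shared for MTHFS, TYMS, GCSH, SLC19A1, SLC1A5, SLC25A32, CBS, PGAM1, TPI1, ATF4, DDIT3, NFE2L2 and SUN1, up to 76.2% for SLC25A32.

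**Figure D5:**
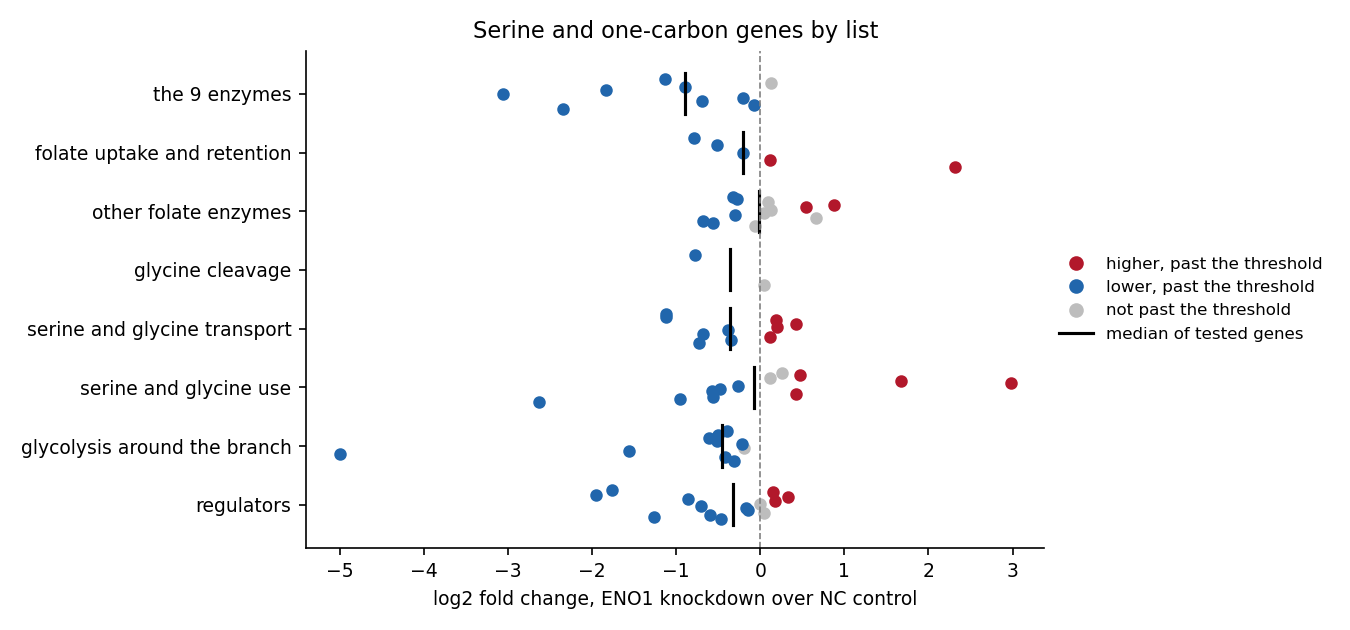
Log2 fold change, ENO1 knockdown over NC control (horizontal axis), of each tested gene in the 9 enzymes and the 7 lists of related genes; points are genes, colours give the call and black bars the list medians. The 9 enzymes have a median of -0.89, against -0.46 for glycolysis around the branch and -0.01 for the other folate enzymes.

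The genes most like 3 of the enzymes were sought over the 6 libraries among 9012 other genes with a symbol and a mean of at least 10 CPM, by the distance between log2 levels centred on each gene's mean. Nearest to PHGDH were NDRG1, TSPOAP1 and RNASE2, at distances of 0.173, 0.237 and 0.242, with log2 fold changes of -2.94, -2.88 and -2.93. Nearest to SHMT2 were FNDC3B, FANCE and DIXDC1, at distances of 0.0482 to 0.0616 and log2 fold changes of -1.10, -1.11 and -1.10. TMEM101, FLYWCH1 and SUN1 were nearest to SHMT1, at distances of 0.0463 to 0.0495 and log2 fold changes of 0.12, 0.13 and 0.15. With 2 groups that differ this much, the measure mostly ranks genes by the size of the group difference.

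Promoter windows from RefSeq (GRCh38.p14) were found for 6 of the 9 genes, and PSPH, SHMT2 and ALDH1L2 had none in the table used. Both strands were searched for 3 motifs, TGATGNAA, the composite site of C/EBP and ATF factors, CACGTG, the E-box bound by MYC, and CCAAT, the site of NF-Y. No motif contains another, and only the 250 bases before the start were searched. The sequences below are shown because PSAT1 fell strongly and SHMT1 did not pass the test, while both carry the motif shared by all 6 genes; capitals mark CCAAT on either strand, and TGATGCAA for MTHFD1L. The stretches of PSAT1 (chr9:78296875-78297124, plus strand) and SHMT1 (chr17:18363564-18363800, minus strand) hold no annotated exon, and the sites of 30 bases lie at chr1:119711851-119711880 for PHGDH, chr2:74198529-74198558 for MTHFD2, chr14:64388125-64388154 for MTHFD1 and chr6:150866346-150866375 for MTHFD1L, all on the plus strand.
PSAT1: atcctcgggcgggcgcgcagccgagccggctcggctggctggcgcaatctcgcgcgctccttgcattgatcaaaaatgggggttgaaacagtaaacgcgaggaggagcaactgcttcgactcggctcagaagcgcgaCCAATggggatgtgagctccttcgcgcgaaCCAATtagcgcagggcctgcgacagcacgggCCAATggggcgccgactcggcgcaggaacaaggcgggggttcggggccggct
SHMT1: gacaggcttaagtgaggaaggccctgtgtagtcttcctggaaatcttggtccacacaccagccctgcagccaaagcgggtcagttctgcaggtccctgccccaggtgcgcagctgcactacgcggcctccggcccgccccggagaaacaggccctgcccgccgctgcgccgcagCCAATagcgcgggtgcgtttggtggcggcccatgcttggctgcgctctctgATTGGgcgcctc
PHGDH: gagtatttccgtCCAATcaaaaggagactg
MTHFD2: atgcggcagggaCCAATgggtggcggaggg
MTHFD1: tctttctttccgCCAATcatttccgccagc
MTHFD1L: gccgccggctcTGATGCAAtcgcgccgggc

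CCAAT was present in at least 1 window of all 6 genes and in 8 of their 9 windows, against 32.0% of 35116 windows in the table. The MTHFD1L windows with CCAAT overlap one another and hold the same site. That site is therefore counted more than once among the 9 windows. PSAT1 held 3 copies, at 113, 83 and 52 bases before the start, and SHMT1 held 2, at 76 and 25 bases before the start. The genes with the motif included PHGDH and PSAT1, which fell more than 2-fold, as well as MTHFD1 and SHMT1, which differed little. Since all 6 genes carried CCAAT, a relation of the motif to the fall could not be tested. The composite site was found for 1 of the 6 genes, MTHFD1L, in 2 of its 4 windows and so 2 of the 9, against 3.14% of all windows. Those 2 windows overlap, and their matches are the same site. The E-box was found for 2 of the 6, MTHFD1 at 15 bases before the start and MTHFD1L, in 3 of the 9 windows, against 6.34% of all windows. The MTHFD1L matches to the E-box lie in the same 2 overlapping windows and are likewise the same site. A match describes letters in the window, and its absence says nothing of binding elsewhere.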

How the data were processed

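RNA was sequenced from 6 MV4-11 libraries. Per the labels' protocols, total RNA was extracted with Trizol and libraries were made with an Illumina TruSeq RNA kit, and the submitters' processing notes name HISAT2 2.0.5 and the build hg38. For the read counter, its annotation and its strand setting, nothing is stated in the sources used here. The authors deposited raw whole-number read counts per Ensembl gene, 1 column per library per the file headers, and columns were matched to samples by the group and number in their names. Symbols matched 23211 of 23227 genes. Positions, transcript lengths and overlaps came from GENCODE 29 on GRCh38.

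The test on the counts was that of edgeR 4.0.16, run in R 4.3.3 (TMM, filterByExpr, robust glmQLFit and glmQLFTest, two-sided, Benjamini-Hochberg over 14635 genes, threshold 0.05). Standard errors are approximate, taken from the F statistic and the fold change. The procedure was first tested on simulated data. No libraries were identical, and those of a group differed beyond sampling noise. CPM values were computed here from the deposited counts.

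The enzymes, lists and alternatives were chosen with earlier results of these data known, and the motifs after the promoters had been read. Named genes were the 9 enzymes, ENO1, in each list the 5 genes of smallest adjusted p, called genes that moved against their list, and the 3 genes most like PHGDH, SHMT2 and SHMT1. Genes that overlap the enzymes were named for their position, and DDIT3 and EIF2AK4 as the regulators that did not pass. CBS was named after its values were seen, as the lowest of its list, and was not followed through the alternatives. The alternatives tried were other scalings (RLE, upper quartile, plain library size), filtering at 5 CPM in at least 3 libraries or not at all, limma-voom (limma 3.58.1) and DESeq2 1.42.0, a block on the replicate number, leaving out each library in turn, the library of each group farthest from its group left out, and a threshold of 0.01. A few genes that the rule would name are not reported here.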

Additional observations from a re-analysis of the deposited data

How the results depend on the processing

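Of the 9 enzyme genes, PHGDH, PSAT1, PSPH, ALDH1L2, SHMT2, MTHFD1L and MTHFD2 kept their direction and call in all 16 alternatives. MTHFD1 lost its call in 9, with a log2 fold change of -0.04 with upper-quartile scaling and with the filter at 5 CPM, -0.02 with plain library sizes, -0.08 at a threshold of 0.01 and -0.08 to -0.06 without knockdown replicate 1 or 2 or NC replicate 1 or 3. Over all libraries left out in turn it ran from -0.09 to -0.06, and it kept its call without knockdown replicate 3 or NC replicate 2. SHMT1 passed as higher at 0.16 with upper-quartile scaling and with the filter at 5 CPM and at 0.18 with plain library sizes, so that 1 enzyme gene was higher there. Those scalings moved the median of all genes by less than 0.1 on the log2 scale, to 0.043 and 0.058. The ratio of SHMT2 to SHMT1 differed by -1.27 to -1.23 with a library left out. With the replicate block MTHFD1 was at -0.08 and lost its call, and no other enzyme gene changed its call. No pairing by replicate number was seen. Same-numbered libraries had correlations of deviations of -0.02 to 0.01, and differently numbered ones of -0.04 to 0.03. With 3 libraries per group, such values cannot show that the libraries were not prepared in pairs. Of 53 other genes followed through the alternatives, 43 kept their call in every alternative run. Depth limited FOLR2, SDS and MTHFS, which had few counts, and 6 libraries limit every permutation test.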
